A study of Rattus norvegicus with 24 samples.

Results

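Genes of the hypoxia pathway were followed in the brain stem of rats fed the complex I inhibitor rotenone. They are 10 of the 22093 genes that the arrays measured with a single symbol. They comprise 6 targets of the hypoxia-inducible factor (Hif), P4ha1, Ak4, Vegfa, Bnip3, Adm and Egln3, and 4 regulators, Hif1a, Arnt, Vhl and Egln1. P4ha1 was chosen by its own lower level in rotenone-fed rats at day 14 and over the 3 days, so its rotenone differences are given as a description without a test. The other 9 genes were chosen for their place in the pathway, with earlier results of these data known, and each gene had 1 transcript cluster, the set of probes for 1 transcribed unit.

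Hif is a pair of proteins, an oxygen-regulated alpha subunit such as Hif1a and its partner Arnt. With oxygen present, the prolyl hydroxylases, among them Egln1 and Egln3, mark the alpha subunit, and Vhl brings the marked protein to degradation. When oxygen is short the alpha subunit persists and the pair switches on genes of glycolysis, blood vessel growth and collagen modification. Its regulation lies mainly in the protein, which an RNA measurement does not see, and the brain uses the pathway to match its blood supply to its oxygen use.

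Male RccHan Wistar rats of 7 to 8 weeks ate food with 400 ppm rotenone during 1, 3 or 14 days, and controls ate food without it for as long. RNA of the brain stem of 1 rat was hybridized to each Affymetrix RTA 1.0 array, with 4 of the 5 rats assigned to each of the 6 groups and 24 arrays in all. Values are log2 of the deposited intensities, and a difference is the mean of the rotenone-fed rats minus that of the controls of that day, fitted with limma over all arrays. P-values had a Benjamini-Hochberg adjustment over 68842 clusters, and an adjusted p under 0.05 passed the test. The tissue was bulk, so fewer cells of a type and less RNA per cell cannot be told apart.

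The arrays had median intensities of 70.7 to 82.6, and precision is limited by how many arrays there were. The control arrays of day 1 with replicate numbers 1 and 3 stood apart. Their means over 18 cerebellar genes were 11.14 and 10.67 on the log2 scale, against 7.69 to 8.48 in the other 22 arrays, and 2 of the 18, En2 and Eomes, lay below the median cluster. Their means over 14 brain stem genes were 8.34 and 7.87, against at least 8.70 elsewhere, so that in these arrays the markers went in part against the labelled tissue. Where leaving them out changed a result of the members at day 1 by over 1.5 times, the value without them is given beside it. At day 14 the mean over 10 red cell genes was 6.80 to 9.26 in rotenone-fed rats and 10.28 to 11.22 in controls, and 5 of these genes passed the test as lower. Also at day 14, the mean over 18 endothelial and pericyte genes was 8.55 to 9.01 in rotenone-fed rats and 8.93 to 9.11 in controls, and none passed. Astrocyte genes, 14 in number, had means of 12.66 to 12.81 in rotenone-fed rats and 12.80 to 13.10 in controls, with none past the test. Means over 12 microglial genes were 7.89 to 8.06 in rotenone-fed rats and 8.09 to 8.17 in controls, without overlap, and those over 11 oligodendrocyte genes were 14.07 to 14.41 in rotenone-fed rats and 14.27 to 14.55 in controls, again with none past the test. The 10 genes of oligodendrocyte precursors had means of 10.27 to 10.41 in rotenone-fed rats and 10.56 to 10.91 in controls, and 1 of them passed as lower. Neuronal genes, 15 in number, had means of 14.46 to 14.54 in rotenone-fed rats and 14.37 to 14.54 in controls. Of these, 9 were higher and 6 lower, with none past the test. The mean over 13 choroid plexus genes was 9.35, 6.44, 7.95 and 6.41 in rotenone-fed rats of day 14, against at most 7.09 in the controls of that day. All 13 differences were positive, with a median of 0.67, and none passed the test. Differences of P4ha1 and Vhl at day 14 are also given below with the cerebellar and choroid plexus means as covariates, and the part of the other markers in the values of day 14 was not tested.

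The promoter windows show which targets carry the core letters of the Hif response element next to a transcript start. The letters searched were ACGTG and GCGTG on both strands, with overlapping matches merged, and the first of them also lies within the E-box CACGTG that other factors bind. RefSeq windows of assembly GRCr8 held 300 bases, 250 before to 50 after a start, and were found for all 10 genes, with 2 windows for Vegfa. Matches were present in the windows of 6 genes, P4ha1, Ak4, Bnip3, Hif1a, Arnt and Egln1, which is 6 of 11 windows, against 41.6% of all 33469 windows. Of these, P4ha1 and Bnip3 had 3 matches each, and 5.96% of all windows had 3 or more. The members' windows were mostly rich in G and C, from 44.7% in Egln3 to 84.7% in Egln1, against a median of 51.7%. A match is a description of the letters and does not show binding.

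Windows of P4ha1, Ak4 and Bnip3 are printed because they are targets with matches that differed in their values. That of Vegfa is printed because it had no match and its rotenone differences were of like size to those of Ak4. Capitals mark the matches, and each window is given on the strand of its gene. That of P4ha1 is chr20:27844796-27845095 on the plus strand, which lies inside the annotated span of the gene (27784696 to 27895785) because the listed transcript starts there. That of Ak4 is chr5:121154886-121155185 on the plus strand, also inside the span of its gene (121154565 to 121214403). The windows of Adm and Hif1a lie inside their genes too, and the outer starts of these genes and of P4ha1 were not searched. The first window of Vegfa is chr9:22452604-22452903 on the plus strand, and that of Bnip3 is chr1:203154913-203155212 on the minus strand.
P4ha1: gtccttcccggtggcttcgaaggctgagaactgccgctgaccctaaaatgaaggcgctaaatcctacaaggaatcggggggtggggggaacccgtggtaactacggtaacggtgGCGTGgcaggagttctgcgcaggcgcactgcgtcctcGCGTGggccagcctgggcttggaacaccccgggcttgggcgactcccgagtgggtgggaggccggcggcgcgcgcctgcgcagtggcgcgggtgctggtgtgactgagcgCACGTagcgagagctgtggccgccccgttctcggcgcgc
Ak4: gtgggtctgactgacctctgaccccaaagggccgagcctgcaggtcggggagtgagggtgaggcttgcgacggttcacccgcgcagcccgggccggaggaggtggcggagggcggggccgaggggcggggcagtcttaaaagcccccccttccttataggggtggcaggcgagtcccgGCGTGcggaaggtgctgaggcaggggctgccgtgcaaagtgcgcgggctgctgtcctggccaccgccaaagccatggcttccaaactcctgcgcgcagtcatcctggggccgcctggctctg
Vegfa: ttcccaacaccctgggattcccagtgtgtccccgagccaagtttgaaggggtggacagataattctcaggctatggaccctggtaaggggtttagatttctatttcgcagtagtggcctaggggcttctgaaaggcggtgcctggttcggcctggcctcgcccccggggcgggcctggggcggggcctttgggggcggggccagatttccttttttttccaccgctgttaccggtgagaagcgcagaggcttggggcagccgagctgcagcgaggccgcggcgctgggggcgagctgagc
Bnip3: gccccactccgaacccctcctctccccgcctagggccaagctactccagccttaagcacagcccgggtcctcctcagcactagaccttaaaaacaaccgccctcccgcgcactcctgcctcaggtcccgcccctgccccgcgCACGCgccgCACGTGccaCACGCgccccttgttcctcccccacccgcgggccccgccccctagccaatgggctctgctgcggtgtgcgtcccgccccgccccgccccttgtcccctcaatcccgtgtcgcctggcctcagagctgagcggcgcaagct

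**Figure D1:**
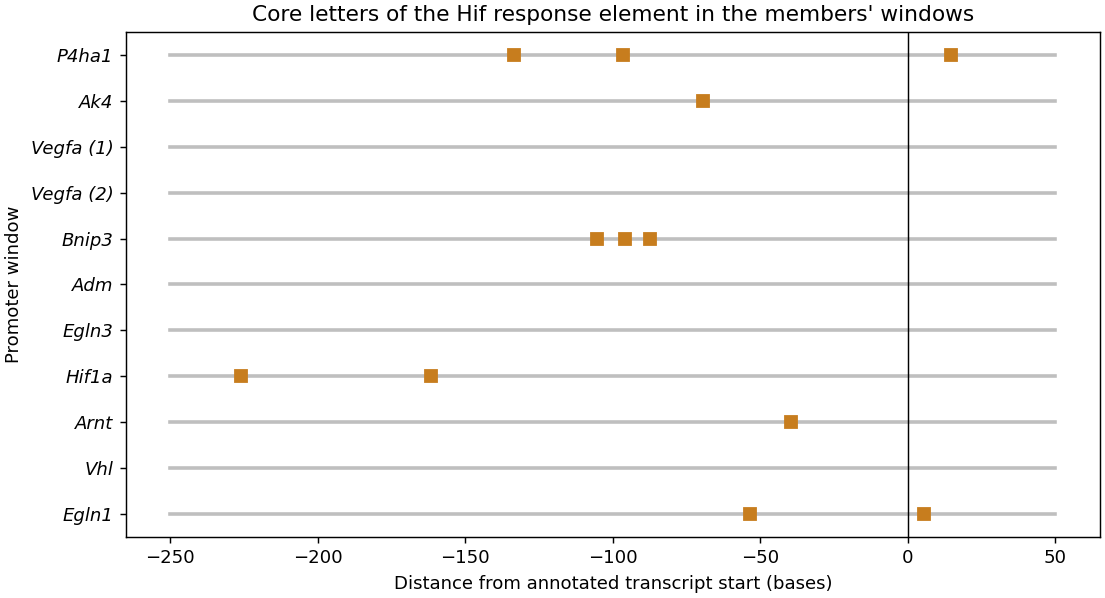
Map of the 11 promoter windows of the 10 genes, with the distance from the annotated transcript start in bases on the x axis. Squares mark stretches of ACGTG or GCGTG on either strand. P4ha1 and Bnip3 have 3 stretches each, and both windows of Vegfa and those of Adm, Egln3 and Vhl have none.

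P4ha1 encodes the catalytic alpha subunit of the prolyl 4-hydroxylase that hydroxylates collagen. It was lower in all 12 rotenone-fed rats than the mean of the controls of the same day. On day 1 its values were 11.74, 11.74, 11.61 and 11.65 in rotenone-fed rats and 12.20, 12.17, 11.95 and 11.90 in controls. On day 3 they were 11.66, 11.58, 11.76 and 11.91 in rotenone-fed rats and 12.09, 12.31, 12.01 and 12.27 in controls. Groups of the same day did not overlap on either day. On day 14 its values were 11.76, 11.31, 11.22 and 11.26 in rotenone-fed rats and 12.34, 11.98, 12.55 and 12.16 in controls. Again there was no overlap, and 3 of the 4 rotenone-fed rats lay below all other arrays.

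Group means of P4ha1 were 11.68 ± 0.065, 11.73 ± 0.14 and 11.39 ± 0.25 at days 1, 3 and 14 in rotenone-fed rats (SD, n = 4 each). The controls of these days had means of 12.06 ± 0.15, 12.17 ± 0.14 and 12.26 ± 0.25 (SD, n = 4 each). Differences were -0.37, -0.44 and -0.87, or 0.772, 0.735 and 0.547 times the level of the control, and the average over the days was -0.56. In the order of levels the 3 control groups came first, then rotenone at days 3 and 1, and last rotenone at day 14. All neighbours in this order overlapped. The highest rotenone-fed rat of day 3 had 11.907 and the lowest control of day 1 had 11.901. The highest rotenone-fed rat of day 14, with 11.76, lay above all those of day 1, which reached 11.74. Without the control arrays 1 and 3, the difference at day 1 was -0.35. With the means of the cerebellar and choroid plexus genes as covariates, the difference at day 14 was -0.91. In controls P4ha1 differed between days by 0.11 for day 3 minus day 1 (SE 0.13) and by 0.088 for day 14 minus day 3 (SE 0.13).

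**Figure D2:**
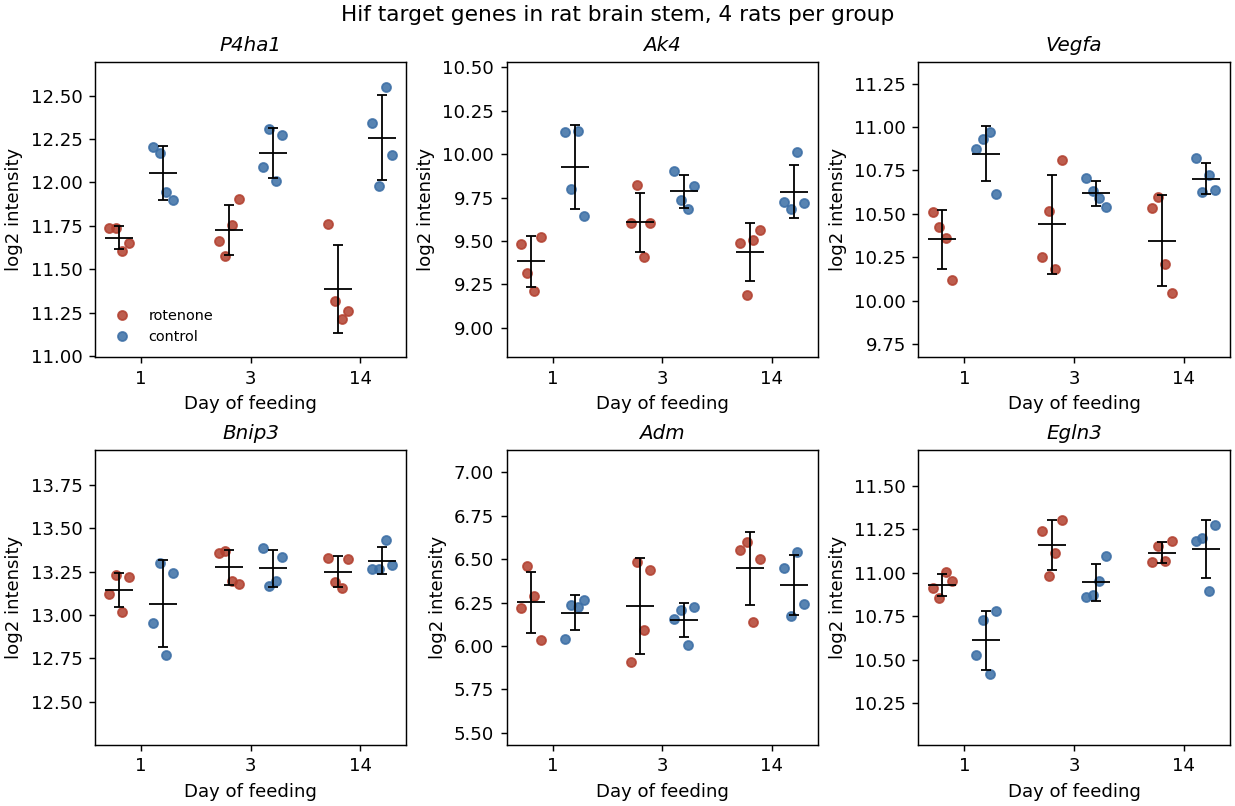
Log2 intensity of the 6 Hif targets by day of feeding, with rotenone left of control. Points are rats, and bars are the mean and SD of 4 rats. P4ha1 shows no overlap between the groups of a day at days 1, 3 and 14, while the groups of Bnip3 and Adm overlap on each day.

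None of the other 9 members passed the test in any rotenone comparison. At day 1 the count was 0 of 9, against 0% of all clusters, and 4 of 9 (Ak4, Vegfa, Egln3 and Arnt) had an unadjusted p under 0.05, against 7.65%. Without the control arrays 1 and 3, 2 of 9 (Ak4 and Vegfa) had one at day 1, against 3.27%. At day 3 it was 0 of 9, against 0% of all clusters, and 2 of 9 had an unadjusted p under 0.05, against 3.17%. At day 14 it was 0 of 9, against 0.0378% of all clusters, and 4 of 9 had an unadjusted p under 0.05, against 10.8%. For the average of the days it was 0 of 9, against 0.00291%, with 5 of 9 at an unadjusted p under 0.05, against 10.8%. A fit without moderation called 1 of the 9 at day 14, Vhl, and none in the other rotenone comparisons.

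The groups of a day were also compared by overlap. All 4 rotenone-fed rats lay below all 4 controls for 3 of the 9 at day 1 (Ak4, Vegfa and Arnt, against 1.21% of all clusters), 1 at day 3 (Vhl, against 1.08%) and 4 at day 14 (Ak4, Vegfa, Arnt and Vhl, against 2.81%). All 4 lay above all controls for 1 at day 1 (Egln3, against 2.42%), 0 at day 3 (against 1.32%) and 0 at day 14 (against 2.52%). When the rotenone-fed rats of day 1 were set against the 2 remaining controls, 4 of the 9 lay below both (Ak4, Vegfa, Bnip3 and Arnt, against 4.69% of all clusters) and 1 above both (Egln3, against 6.97%). At day 14 the differences of 8 of the 9 were negative, with a median of -0.21. The median was 0.053 over all clusters and -0.0051 over all 22093 genes. The 9 genes were chosen with results of these data known, so these counts are a description.

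Ak4, a mitochondrial adenylate kinase, was lower than the mean of the controls in 11 of 12 rotenone-fed rats. On day 1 it had 9.48, 9.32, 9.21 and 9.52 in rotenone-fed rats and 10.13, 9.80, 10.13 and 9.64 in controls. All rotenone-fed rats lay below all controls, and the highest controls were the arrays with cerebellar transcripts. The difference was -0.54 (SE 0.12, limma adjusted p = 0.469), and -0.34 without these arrays (SE 0.13), when the remaining 2 controls still lay above all 4 rotenone-fed rats. On day 3 the values were 9.60, 9.82, 9.41 and 9.61 in rotenone-fed rats and 9.90, 9.74, 9.69 and 9.81 in controls, which overlapped. On day 14 they were 9.49, 9.19, 9.51 and 9.56 in rotenone-fed rats and 9.72, 9.69, 10.01 and 9.72 in controls, with no overlap and a difference of -0.35 (SE 0.12, limma adjusted p = 0.347). Over the days the difference was -0.36 (95% interval -0.50 to -0.21, limma adjusted p = 0.169).

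Vegfa encodes the growth factor that drives the sprouting and leakiness of vessels. On day 1 it had 10.51, 10.43, 10.36 and 10.12 in rotenone-fed rats and 10.87, 10.93, 10.97 and 10.62 in controls, with no overlap and a difference of -0.49 (SE 0.13, limma adjusted p = 0.491). Without the control arrays 1 and 3 the difference was -0.42 (SE 0.17). On day 3 the values in rotenone-fed rats were spread, with 10.25, 10.52, 10.18 and 10.81, and those in controls were 10.71, 10.63, 10.59 and 10.54. Here 3 rotenone-fed rats lay below all controls and 1 lay above them. On day 14 it had 10.53, 10.60, 10.21 and 10.04 in rotenone-fed rats and 10.82, 10.63, 10.72 and 10.64 in controls. The groups of day 14 did not overlap, but the highest rotenone-fed rat lay next to the lowest control. Its average difference was -0.34 (95% interval -0.50 to -0.18, limma adjusted p = 0.185), with 11 of 12 rotenone-fed rats below the mean of their controls. Vegfa and Ak4 thus had differences of like size on each day, although both missed the test.

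Egln3, a prolyl hydroxylase that is itself switched on by Hif, ran the other way on the first days. On day 1 it had 10.91, 10.85, 11.00 and 10.95 in rotenone-fed rats and 10.53, 10.73, 10.41 and 10.78 in controls, with all rotenone-fed rats higher. The difference was 0.32 (SE 0.098, limma adjusted p = 0.499), and 0.18 without the control arrays 1 and 3 (SE 0.11), which held the lowest values. On day 3 it had 11.24, 10.98, 11.12 and 11.30 in rotenone-fed rats and 10.86, 10.87, 10.95 and 11.10 in controls, a difference of 0.22 (SE 0.098, limma adjusted p = 1.000). On day 14 the groups lay at the same height, with a difference of -0.021 (95% interval -0.23 to 0.18) whose sign turned under quantile normalization. Whether the difference of Egln3 varied with the day did not pass the test of the interaction (limma adjusted p = 0.962).

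Bnip3, which tags mitochondria for removal, and Adm, a peptide that widens vessels, did not stand apart between the groups of all 4 rats. Bnip3 had group means between 13.15 and 13.28 in rotenone-fed rats and between 13.07 and 13.31 in controls. Its average difference was 0.0066 (95% interval -0.12 to 0.13), with a sign that turned when arrays were centred on their median or the control arrays 1 and 3 were left out. Adm had group means between 6.23 and 6.45 in rotenone-fed rats and between 6.15 and 6.35 in controls, close to the median cluster mean of 6.24. Its average difference was 0.079 (95% interval -0.077 to 0.24, limma adjusted p = 0.719). At day 1 the difference of Adm was 0.060, and 0.0020 without the control arrays 1 and 3 (SE 0.16). That of Bnip3 at day 1 was 0.079, and -0.12 without these arrays (SE 0.098).

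**Figure D3:**
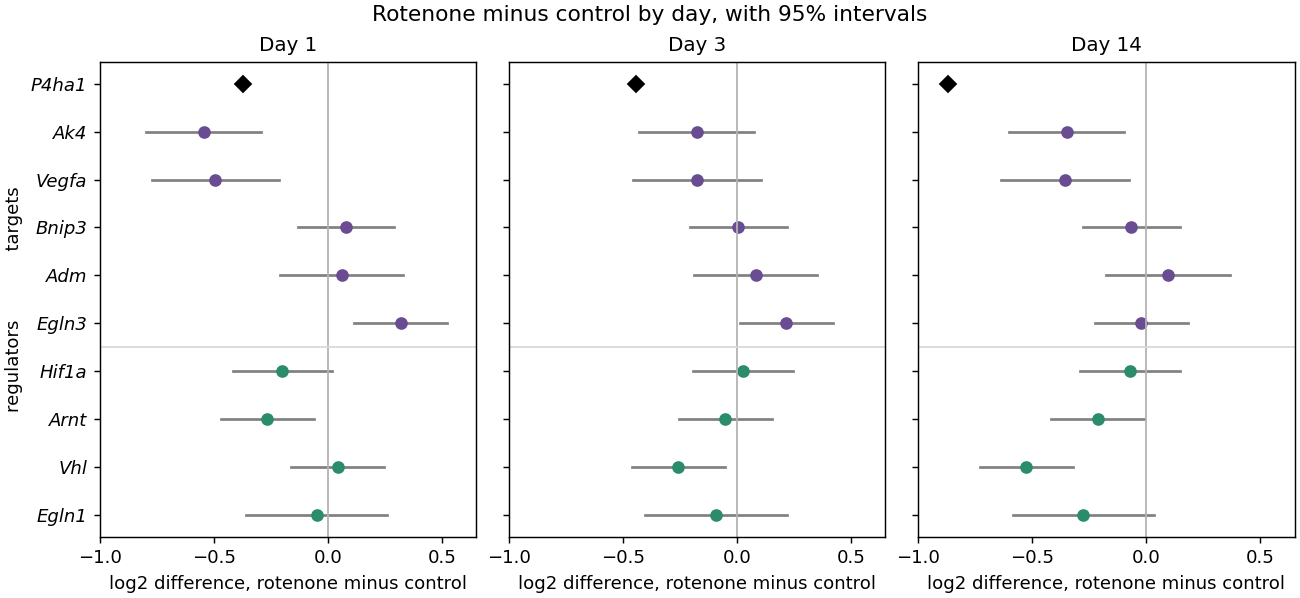
Log2 difference, rotenone minus control, of the 10 genes at days 1, 3 and 14, with targets above regulators. Bars are 95% intervals from limma, and P4ha1, a black diamond, has none because it was chosen by this difference. At day 14 the differences of P4ha1 and Vhl, -0.87 and -0.53, lie farthest from 0.

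Among the regulators Vhl, the recognition subunit of the ligase that removes Hif alpha subunits, had the difference of the smallest adjusted p at day 14. On day 1 its values were 8.99, 9.00, 9.05 and 9.08 in rotenone-fed rats and 9.03, 9.18, 8.89 and 8.85 in controls, which overlapped. On day 3 they were 9.03, 9.07, 8.90 and 8.90 in rotenone-fed rats and 9.26, 9.20, 9.28 and 9.18 in controls. On day 14 they were 8.80, 8.42, 8.56 and 8.65 in rotenone-fed rats and 9.32, 8.92, 9.26 and 9.03 in controls. On both later days all rotenone-fed rats lay below all controls. Differences were 0.043 (SE 0.098), -0.26 (SE 0.098) and -0.53 (SE 0.098) at days 1, 3 and 14, and 0.013 (SE 0.12) at day 1 without the control arrays 1 and 3. At day 14 the level was 0.694 times that of the controls (95% interval on the log2 scale -0.73 to -0.32), with a limma adjusted p of 0.0512, just outside the threshold. It passed in 7 of 17 alternatives, with adjusted p between 0.0166 and 0.558 over all of them. With the cerebellar and choroid plexus means as covariates the difference at day 14 was -0.57. The interaction of treatment and day did not pass for any of the 9 (against 0% of all clusters), and 1, Vhl, had an unadjusted p under 0.05, against 5.1%. The limma adjusted p of this interaction was 0.962.

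Arnt, the partner of the alpha subunits, had 10.14, 10.26, 10.27 and 10.22 in rotenone-fed rats of day 1 and 10.71, 10.30, 10.64 and 10.30 in controls. The difference of -0.27 (SE 0.098, limma adjusted p = 0.539) was -0.078 (SE 0.098) without the control arrays 1 and 3, which held both high values. On day 14 Arnt had 10.10, 10.10, 9.88 and 9.87 in rotenone-fed rats and 10.29, 10.13, 10.15 and 10.22 in controls. These groups did not overlap, with a difference of -0.21 (SE 0.098, limma adjusted p = 0.451). On day 3 the difference was -0.051 (SE 0.098).

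Hif1a, the oxygen-regulated subunit, had group means between 13.18 and 13.23 in rotenone-fed rats and between 13.21 and 13.38 in controls, and its groups overlapped on each day. Its average difference was -0.081 (95% interval -0.21 to 0.045, limma adjusted p = 0.636). That average was -0.043 without the control arrays 1 and 3, and the difference of Hif1a at day 1 was -0.20 with them and -0.086 without them. Egln1, the main prolyl hydroxylase for Hif1a, had differences of -0.049, -0.093 and -0.28 at days 1, 3 and 14, and -0.14 at day 1 without the control arrays 1 and 3. At day 14 its values were 9.96, 9.77, 9.51 and 9.94 in rotenone-fed rats and 10.26, 9.61, 10.33 and 10.08 in controls. One control lay among the rotenone-fed rats, and the difference did not pass the test (95% interval -0.59 to 0.035, limma adjusted p = 0.517). It was -0.43 without the control of the lowest value, replicate 2, and -0.18 without rotenone replicate 3.

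**Figure D4:**
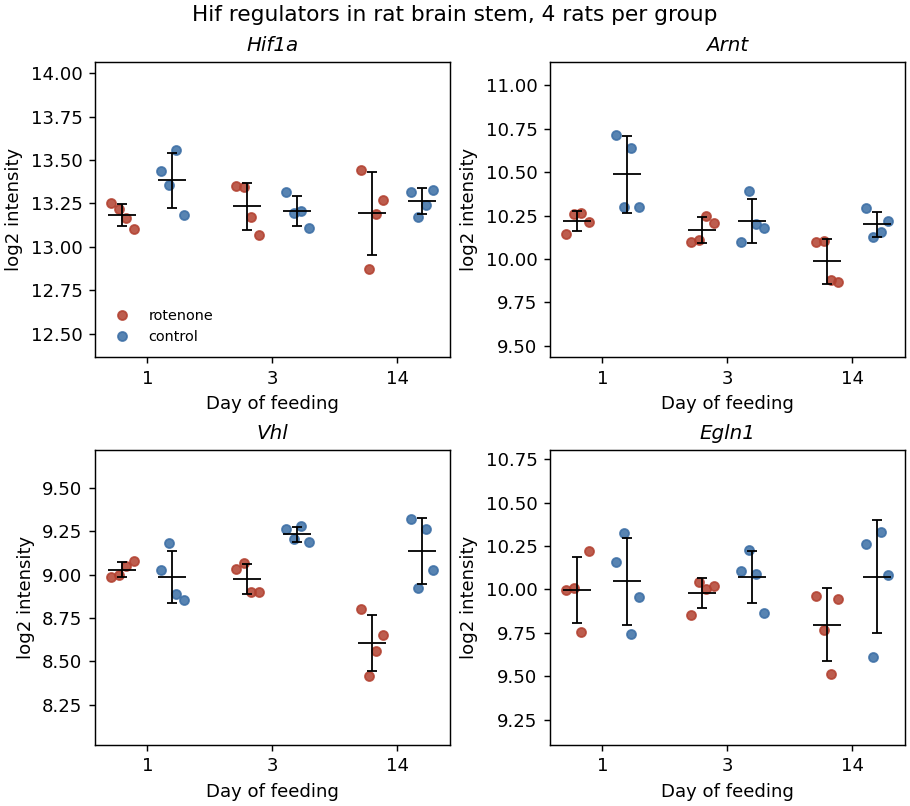
Log2 intensity of the 4 Hif regulators by day of feeding, with rotenone left of control. Points are rats, and bars are the mean and SD of 4 rats. Vhl shows no overlap at days 3 and 14, with means of 8.97 and 8.61 in rotenone-fed rats and 9.23 and 9.13 in controls.

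The members moved in different directions with the cerebellar transcripts of day 1. In the control arrays 1 and 3, Ak4, Arnt and Hif1a were above the other day 1 controls, and Bnip3 and Egln3 were below them. Bnip3 had 12.95 and 12.77 in these arrays and 13.30 and 13.24 in the other controls of day 1. P4ha1 did not follow this split, with 12.20 and 11.95 in these arrays and 12.17 and 11.90 in the others. Without them, no member passed the test at day 1, and the differences of Ak4 and Vegfa stayed negative and that of Egln3 positive.

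**Figure D5:**
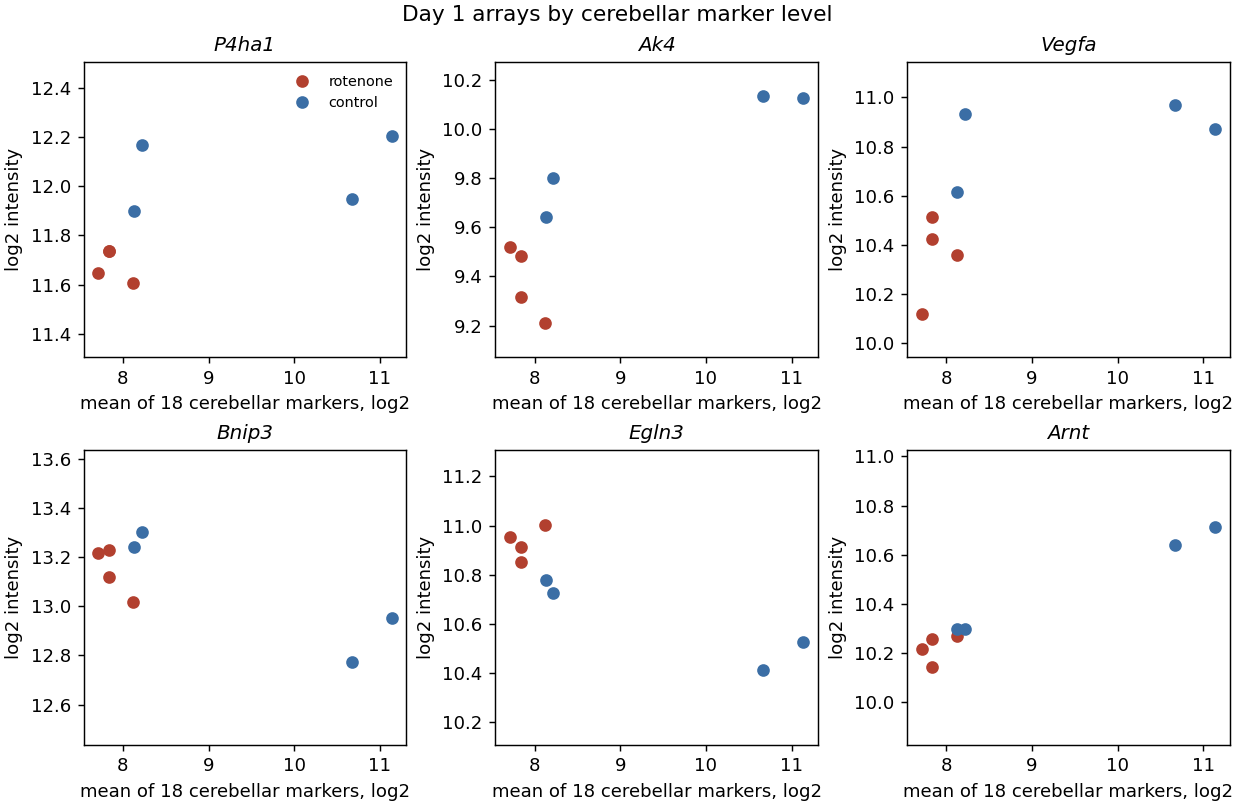
Log2 intensity of 6 members in the 8 arrays of day 1 (y axis) against the mean log2 intensity of 18 cerebellar genes in the same array (x axis). The control arrays with means of 10.67 and 11.14 hold the highest values of Ak4 and Arnt and the lowest of Bnip3 and Egln3.

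In controls the members were compared between days. For day 3 minus day 1, 0 of 9 passed, against 0% of all clusters, and 3 of 9 had an unadjusted p under 0.05, against 8.15%. These were Egln3 with 0.33 (SE 0.098, limma adjusted p = 0.452), Arnt with -0.27 (SE 0.098, limma adjusted p = 0.495) and Vhl with 0.25 (SE 0.098, limma adjusted p = 0.536). The control arrays with cerebellar transcripts belong to day 1 of this comparison, and without them Egln3 had 0.19 (SE 0.11), Arnt had -0.080 (SE 0.098) and Vhl had 0.22 (SE 0.12). For day 14 minus day 3, 0 of 9 passed, against 0%, and 0 of 9 had an unadjusted p under 0.05, against 3.53%.

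Deviations of each array from its group mean were used to see which members varied together among rats treated alike. Over 45 pairs and 24 arrays, no pair passed a permutation test within groups after Benjamini-Hochberg adjustment. The pairs of smallest p for Pearson's r were Vhl with Egln1 (Pearson r = 0.68, permutation p = 0.0062, adjusted p = 0.173, Spearman rho = 0.72, permutation p = 0.0025, adjusted p = 0.112) and Ak4 with Egln3 (r = -0.62, permutation p = 0.011, adjusted p = 0.173, rho = -0.59, permutation p = 0.018, adjusted p = 0.198). For Vhl with Egln1, r was 0.54 without the 2 arrays farthest from the median of Vhl and 0.66 without the control arrays 1 and 3. For Ak4 with Egln3 it was -0.58 without the 2 arrays farthest from the median of Ak4 and -0.46 without these control arrays. Among 14462 other genes above the median cluster, those most like P4ha1 in these deviations were Peli1 (r = 0.77), Cdc42se1 (0.75), Zfyve26 (0.74), Fbxo4 (0.73), Dusp7 (0.73) and Lnx2 (0.72). The least like were Izumo4 (-0.74), Tmc5 (-0.74) and Zfp777 (-0.71). The arrays share tissue cutting and brightness, so this likeness is a description.

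The wider list of Hif targets, 58 genes measured of 60 listed, held no gene past the test on any day or for the average. Its median difference was -0.024, -0.018 and -0.067 at days 1, 3 and 14, against 0.034, 0.0053 and -0.0051 over all 22093 genes. For the average 40 were lower and 18 higher, with a median of -0.044, against 0.010 over all genes. The lowest averages were those of Ddit4, an inhibitor of mTOR signalling, with -0.29 (limma adjusted p = 0.446), and Ccng2, a cyclin of cell cycle arrest, with -0.28 (limma adjusted p = 0.550). The average of Ccng2 was 0.0099 without the control arrays 1 and 3. The highest were those of Edn1, a peptide that narrows vessels, with 0.47 (limma adjusted p = 0.154), and Tfrc, the transferrin receptor, with 0.28 (limma adjusted p = 0.268). Targets thus lay on both sides of 0.

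The wider list of Hif regulators, 24 of 24 genes measured, also held none past the test. Its median was 0.026, 0.025 and -0.091 at days 1, 3 and 14, and 12 were lower and 12 higher for the average. Siah2, a ligase that degrades prolyl hydroxylases, had an average of -0.13, and the chaperone Hsp90ab1 had -0.12. At the other end Hif3a, an alpha subunit, had 0.10 and Sat1, the spermidine acetyltransferase, had 0.089. These 4 averages were all nearer to 0 than those of Ak4 and Vegfa.

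Genes that work with P4ha1 on collagen were measured for 12 of 13 listed, and none passed the test. Serpinh1, the collagen chaperone Hsp47, had the lowest average with -0.37 (limma adjusted p = 0.185), and its differences were -0.22, -0.26 and -0.64 at days 1, 3 and 14. P3h3, a prolyl 3-hydroxylase, had -0.25 (limma adjusted p = 0.297), most of it at day 1 with -0.55. Without the control arrays 1 and 3, P3h3 had -0.22 at day 1 and -0.14 on average, and Serpinh1 had -0.41 and -0.43. The highest averages were 0.094 for P4ha3, another alpha subunit of the prolyl 4-hydroxylase, and 0.069 for P3h4. Named outside the rule for their role, the alpha subunit P4ha2 had an average of -0.064 and the beta subunit P4hb, with which P4ha1 forms the enzyme, had 0.0046. The median of the list was -0.11 at day 14, against -0.0051 over all genes, with 10 lower and 2 higher. Differences between these genes were not tested.

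Among 9 other Vegf ligands and receptors none passed the test. Average differences lay between -0.090 for Flt1, a receptor of Vegfa, and 0.20 for the ligand Pgf, which had 0.51 at day 1. Next to these ends were Vegfb with -0.069 and Flt4 with 0.067. Without the control arrays 1 and 3, Pgf had 0.24 at day 1 and 0.11 on average. Flt1 had -0.31 at day 14. The endothelial and pericyte genes as a whole were lower on that day, with all 18 differences negative and a median of -0.26. Flt1 and the receptor Kdr belong to both lists, so the lists are not independent.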

How the data were processed

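The authors hybridized RNA of the brain stem of 24 rats to Affymetrix RTA 1.0 arrays, applied the GCCN and SST corrections and summarised the probes by RMA. The deposited values are intensities on a linear scale, 1 for each transcript cluster and array. The array's genome build is not given in the sources used here. Of 70580 entries, 1738 control probe sets were dropped. The other 68842 were put on the log2 scale with no normalization added. Symbols came from the platform annotation, with 1 updated through RefSeq (GRCr8). A gene was represented by its cluster with the highest mean.

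A mean for each of the 6 groups was estimated in R 4.3.3 by limma 3.58.1, with 18 residual and 3.64 prior degrees of freedom and Benjamini-Hochberg adjustment over all clusters. The fit was also run on simulated data, whose outcome is not given here, and no result above rests on that run. Pairs of members were tested with 100000 permutations within groups in Python 3.11.15 with scipy 1.17.1, and figures were drawn with matplotlib 3.10.9. The labels call the replicates biological, and no 2 arrays held identical values. The members and lists were chosen with earlier results of these data known.

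All 10 members are named. From each wider list, genes past the test and those with the 2 highest and 2 lowest average differences are named. Kdr, Col1a2 and Col3a1 are named only because 2 lists share them, and P4ha2 and P4hb for their role. The 6 genes most like P4ha1 and the 3 least like it are named by the correlation of deviations from group means. Alternatives were quantile normalization, centred arrays, moderation with trend and robust priors, least squares without moderation, clusters at or above the median, the arrays of 1 day, a replicate block, covariates for cerebellum and choroid plexus, omission of control day 1 arrays 1 and 3, and each array left out in turn. The mean over a gene's clusters is the same value here because each member has 1 cluster.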

Additional observations from a re-analysis of the deposited data

Results flagged for a closer look

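Of 60 combinations of member and group, 2 held a rat far from the other 3 by Dixon's test, where chance gives about 1 in 20, and both were control day 14 replicate 3. Ak4 had 10.01 in this rat, against 9.69 to 9.72 in the other controls of day 14. Bnip3 had 13.43 in it, against 13.27 to 13.29. Without single rats of day 14, the difference of Ak4 at that day lay between -0.39 and -0.27.

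Vhl differed between days in direction. All 4 rotenone-fed rats lay above the mean of the controls at day 1, with a difference of 0.043, and all 4 lay below it at days 3 and 14, with -0.26 and -0.53. This contrast of directions was not tested for pairs of days, and the limma interaction of treatment and day over all 3 days had an adjusted p of 0.962. Without control day 1 replicate 4 the difference at day 1 was -0.0017.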

How the results depend on the processing

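P4ha1 kept its direction in all 83 values under the alternatives and moved by less than the SD between rats. This lends its difference no support, because P4ha1 was chosen by it. Its groups of a day did not overlap, so leaving out a rat could not turn the sign. Alternatives that change only the test or the clusters tested leave a difference of means as it is. The difference of P4ha1 at day 14 lay between -0.96 and -0.81 under the alternatives and between -0.99 and -0.77 without single arrays. Of the other members, 706 of 747 values kept direction and side of the threshold. The count of members past the test was 1 in place of 0 at day 14, always Vhl, with trend and robust moderation (adjusted p = 0.0306), without moderation (0.0328), with clusters at or above the median (0.0166), without control day 1 arrays 1 and 3 (0.0446) and with the tissue covariates (0.0494, a difference of -0.57), and it was 0 to 1 without single arrays. Vhl passed without rotenone replicate 1 (adjusted p = 0.0283) or control replicate 2 (0.0194). At day 1 the count was 0 to 1 without single arrays, and the 1 was Ak4 without control replicate 4, with -0.64 (adjusted p = 0.0438). In the main fit none of the 9 had passed the test, so the signs that turned could only be those of differences that had not. Bnip3 turned to -0.12 at day 1 and -0.061 on average without control day 1 arrays 1 and 3, to -0.15 and -0.081 with the covariates, and to -0.037 on average with centred arrays, and it ranged from -0.019 to 0.16 at day 1, -0.029 to 0.044 at day 3 and -0.026 to 0.033 on average without single arrays. Adm at day 1 turned to -0.017 with the covariates, and it ranged from -0.010 to 0.13 at day 1 and -0.0039 to 0.19 at day 3 without single arrays. Egln3 at day 14 turned to 0.046 under quantile normalization and ranged from -0.10 to 0.024. Without single arrays Hif1a ranged from -0.012 to 0.081 at day 3 and -0.15 to 0.037 at day 14, Arnt at day 3 from -0.092 to 0.0074, Vhl at day 1 from -0.0017 to 0.11 and Egln1 at day 1 from -0.15 to 0.044. The median of the wider Hif targets at day 14 was -0.16 with centred arrays. That of the wider regulators at day 14 was -0.18 with centred arrays and -0.026 under quantile normalization, and at day 1 it was 0.075 under quantile normalization and turned to -0.011 with centred arrays and -0.016 without control day 1 arrays 1 and 3. Centring moves the differences of all clusters at a day by the same amount. P4ha1 at day 14 thus went from -0.87 to -0.96, and the median of the wider targets from -0.067 to -0.16. The centred medians therefore do not show these lists lower relative to other genes than the main fit does. The cause of the other shifts was not tested. Replicate numbers are shared between groups, but same-numbered rats did not deviate together (mean r = -0.021, and 3 of 24 arrays correlated best with their own number). With the replicate block 0 members passed at each day, and the clusters called at day 14 were 14, against 26 without it.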

Other observations

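Lists around the other members held no gene past the limma test on any day. Of 15 collagen chains, 13 had higher values at day 3 and 9 had lower values at day 14. Their medians on these days were 0.10 and -0.053, against 0.0053 and -0.0051 over all genes. Of 14 meningeal and fibroblast genes, 14 had higher values at day 3, with a median of 0.29. At day 14, 12 of them had lower values, with a median of -0.18. Col1a1, Col1a2 and Col3a1 belong to both lists, so the lists are not independent. The part of the meningeal and fibroblast genes in the collagen values was not tested. The averages of these chains lay between -0.11 for Col11a1 and 0.19 for Col8a1, which had 0.43 at day 14, while Col1a1 had -0.39 at that day. Next to these ends were the averages of Col1a1 with -0.031 and Col6a1 with 0.075. Among 5 adenylate kinases and related kinases beside Ak4, Ak7 had the lowest average with -0.25 and Ak9 followed with -0.16, and Ak3 and Cmpk1 had -0.0073 and 0.016. Without control day 1 arrays 1 and 3 the average of Ak7 was -0.12.

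Of 8 genes of the Bnip3 family and of mitophagy, Bcl2l13 and Bnip1 had the lowest averages with -0.13 and -0.097. Fundc1, a mitophagy receptor, and Pink1, the kinase that marks damaged mitochondria, had the highest with 0.15 and 0.14. The partners and relatives of adrenomedullin, 6 genes, lay between -0.090 for the receptor subunit Ramp2, which had -0.29 at day 14, and 0.11 for the ligand Adm2. Ackr3 had -0.045 and Calcrl 0.038.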
